A study of Mus musculus with 8 samples.

Results

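Lysosome and autophagy genes were compared between the Nrp-1+ and the Nrp-1- fraction into which induced regulatory T cells (iTreg) were sorted by surface Nrp-1. The 37 genes were taken by symbol from a list of lysosomal hydrolases, lysosomal membrane proteins, autophagy genes and the transcription factors Tfeb and Tfe3, and the rule that picks them uses no measured value, although earlier results of these data were known when the list was made. All 37 were among the 23361 gene symbols measured, and 36 of them were among the 10467 genes whose mean was at least 1 FPKM, the level required for a test. FPKM counts the fragments of a gene relative to its exon length and to all mapped fragments of the library. The 37th, Cd63, a tetraspanin of lysosomes and other endosomal vesicles, was listed at 0 in 1 library of each group and reached at most 0.534 FPKM.

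Both groups came from WT Foxp3-RFP mice, which report Foxp3 with a red fluorescent protein. Naive CD4+ T cells from spleen were cultured with anti-CD3/CD28 beads at 1 bead per 5 cells, IL-2 at 50 U/ml and TGF-β at 2 ng/ml. Viable CD4+ Foxp3-RFP+ cells were then separated into the 2 Nrp-1 fractions, so that both groups had been stimulated, exposed to TGF-β and gated on Foxp3, and neither carried a deletion. Each group had 4 libraries, which the labels number as biological replicates. The labels give 3 days of differentiation in one field and day 5 in another. The study's methods place the sort on the earlier of these days, give IL-2 at a dose in another unit, and describe the mice as young adults on the B6 background. How many mice stood behind each replicate is not given in the sources used here. The p-values therefore measure the spread between these libraries, which may be technical in part.

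Lysosomes are acidic organelles in which hydrolases degrade proteins, glycans and lipids delivered by endocytosis or by autophagy. In autophagy a membrane grows around cytoplasmic material, is decorated with lipid-bound ATG8 proteins such as LC3B and GABARAP, and fuses with the lysosome. TFEB and TFE3 are basic helix-loop-helix factors that bind the E-box CACGTG, often within the longer palindrome TCACGTGA, near the starts of many of these genes, and both are kept in the cytoplasm when mTORC1 is active. In T cells, cathepsins and autophagy take part in activation, metabolism and survival, and autophagy is known to be needed for the maintenance of Treg.

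Promoter sequence from RefSeq, 250 bases before to 50 bases after the start on assembly GRCm38.p6, was given for 30 of the 37 genes. The 5 promoters below are shown because they differ in their E-boxes and in how the gene moved between the groups. Capitals mark CACGTG, a palindrome that reads the same on both strands, and each sequence runs 5′ to 3′ on the strand of the gene.
Lamp1, chr8:13158911-13159210, plus strand: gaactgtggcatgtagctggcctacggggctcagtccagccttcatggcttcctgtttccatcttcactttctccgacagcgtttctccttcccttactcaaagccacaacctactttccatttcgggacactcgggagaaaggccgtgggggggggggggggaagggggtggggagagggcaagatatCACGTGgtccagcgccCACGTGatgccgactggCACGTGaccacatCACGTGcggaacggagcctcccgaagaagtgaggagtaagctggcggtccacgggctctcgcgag
Ctsd, chr7:142387778-142388077, minus strand: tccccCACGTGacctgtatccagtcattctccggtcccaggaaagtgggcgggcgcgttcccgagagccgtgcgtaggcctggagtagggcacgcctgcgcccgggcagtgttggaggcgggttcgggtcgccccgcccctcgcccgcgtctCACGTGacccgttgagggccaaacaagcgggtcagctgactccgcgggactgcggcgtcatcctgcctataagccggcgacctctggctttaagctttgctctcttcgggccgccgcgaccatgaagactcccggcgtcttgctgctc
Ctsa, chr2:164833523-164833822, plus strand: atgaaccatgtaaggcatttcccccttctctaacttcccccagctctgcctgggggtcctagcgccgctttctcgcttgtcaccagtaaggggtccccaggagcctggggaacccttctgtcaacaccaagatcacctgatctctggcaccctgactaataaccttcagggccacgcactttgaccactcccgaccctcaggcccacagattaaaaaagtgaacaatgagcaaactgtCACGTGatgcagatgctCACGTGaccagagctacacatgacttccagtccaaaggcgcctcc
Gla, chrX:134600956-134601255, minus strand: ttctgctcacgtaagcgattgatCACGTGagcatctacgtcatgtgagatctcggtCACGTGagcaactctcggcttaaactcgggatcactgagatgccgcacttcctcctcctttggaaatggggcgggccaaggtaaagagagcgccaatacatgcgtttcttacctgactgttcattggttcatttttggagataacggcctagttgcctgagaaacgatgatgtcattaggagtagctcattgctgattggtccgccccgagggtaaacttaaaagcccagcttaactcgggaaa
Npc2, chr12:84773063-84773362, minus strand: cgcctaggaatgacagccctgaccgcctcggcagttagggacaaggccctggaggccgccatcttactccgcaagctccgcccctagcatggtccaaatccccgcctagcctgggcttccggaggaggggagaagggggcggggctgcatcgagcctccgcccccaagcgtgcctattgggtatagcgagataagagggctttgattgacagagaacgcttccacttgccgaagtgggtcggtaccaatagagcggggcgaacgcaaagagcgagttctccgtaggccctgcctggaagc
Lamp1 held 4 E-boxes within 61 bases of its start, beginning at -61, -45, -28 and -15 when the start base is +1, and none of the 4 had the flanks of TCACGTGA. Ctsd held E-boxes at -245 and -98, the latter within TCACGTGA. The Ctsa window shown is that of an alternative start, with TCACGTGA on either side of the start base, and the other Ctsa window held no E-box. Gla held TCACGTGA at both of its E-boxes, at -227 and -194, whereas the letters CACGTG were not in the Npc2 window.

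Across the list, CACGTG was present in at least 1 promoter of 13 of the 30 genes (43.3%), compared with 12.6% of the tested genes that had a promoter in the same table and 7.15% of all 32851 promoters of this length. TCACGTGA, which contains CACGTG, was present for 5 of the 30 genes (16.7%), compared with 2.52% of the tested genes. These shares describe the letters in a window and were not tested. Among the genes called lower in Nrp-1+ iTreg in the comparison that follows, 6 of 16 held CACGTG, and among the others 7 of 14 did. The 13 genes with the motif were Atg3, Atg5, Atg7, Ctsa, Ctsd, Ctsl, Gaa, Gla, Glb1, Lamp1, Lgmn, Mcoln1 and Naglu.

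Nrp1, the gene of the sorted surface protein, was at 22.0, 21.8, 21.6 and 20.4 FPKM in Nrp-1+ iTreg and at 4.95, 4.70, 5.31 and 4.83 FPKM in Nrp-1- iTreg, a log2 difference of 1.92 ± 0.039 (SE, n = 4 a group) in the direction of the labels. Markers of CD4 T cells and Treg summed to 1502 to 1535 FPKM in the libraries of Nrp-1+ iTreg and to 1516 to 1589 FPKM in those of Nrp-1- iTreg, with Foxp3 at 107 to 120.5 FPKM in every library. Within this list Foxp3 (adjusted p = 0.0245), Il2ra and Ikzf2 were higher in Nrp-1+ iTreg beside Nrp1 itself, by log2 differences of 0.09, 0.22 and 0.31, while Cd3d and Ctla4 were lower, by log2 differences of -0.18 and -0.15. Since myeloid cells are rich in lysosomes, their markers were read as well. Of 12 macrophage and monocyte markers, 11 had a mean under 1 FPKM, including Lyz2, Csf1r and Cd14, and the list summed to 6.75 to 7.41 FPKM in Nrp-1+ iTreg against 5.84 to 6.36 FPKM in Nrp-1- iTreg, nearly all of it Itgam, which was higher in Nrp-1+ iTreg at 6.70 ± 0.252 against 5.56 ± 0.154 FPKM (SD, adjusted p = 0.00136). Of 10 dendritic cell markers, 8 were under 1 FPKM, and the sum of 130.5 to 143 FPKM against 119.9 to 134 FPKM was mostly Cst3, a secreted cathepsin inhibitor found in many cells. The other dendritic cell marker above 1 FPKM, the MHC class II gene H2-Ab1, was lower in Nrp-1+ iTreg, at 10.2 ± 0.947 against 13.8 ± 1.76 FPKM (SD, adjusted p = 0.0087). The other MHC class II genes of that list lay in both directions, with H2-Aa at 0.0817 against 0.254 FPKM and H2-Eb1 at 0.889 against 0.775 FPKM. B cell markers summed to 5.21 to 5.96 FPKM against 4.01 to 5.83 FPKM, and Cd79b, which made up most of this sum, was not called. CD8 T and NK cell markers summed to 9.36 to 10.3 FPKM against 10.7 to 12.6 FPKM, with Cd8b1 lower in Nrp-1+ iTreg at 7.86 ± 0.742 against 10.0 ± 0.935 FPKM (SD, adjusted p = 0.0119). The other 6 markers of that list were under 1 FPKM, with Cd8a at 0.0571 against 0.0474 FPKM and Eomes at 0.85 against 0.593 FPKM. Erythroid and platelet markers summed to 5.58 to 8.14 FPKM against 2.12 to 3.50 FPKM, with the haemoglobin gene Hba-a1 higher at 6.10 ± 0.958 against 2.52 ± 0.585 FPKM (SD, adjusted p = 0.00051). The part of these markers in the differences of lysosome and autophagy genes was not tested. Relative depth, read from the steps of low FPKM values, ran from 0.811 to 1.24 of the first library. Short RNA genes took between 1.81% and 43.9% of the summed FPKM of a library, and their share varied within both groups.

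Of the 36 lysosome and autophagy genes tested, 19 were lower in Nrp-1+ iTreg and 2 were higher at an adjusted p under 0.05 (limma on log2(FPKM + 1), Benjamini-Hochberg over all genes), and 15 were not called. Over all genes tested, 20.0% were called lower and 20.9% were called higher, so that the list had 52.8% of its tested genes among the lower calls and 5.56% among the higher calls. The differences were small. The median log2 difference was -0.09, compared with -0.02 over all genes, 13 of the 19 lower genes fell by more than 10% and 5 fell by more than 20%. On this scale the pseudocount of 1 understates the change of genes near 1 FPKM. For 18 genes every Nrp-1+ library lay below every Nrp-1- library, a pattern seen in 19.3% of all genes, and for 2 genes every Nrp-1+ library lay above, a pattern seen in 20.2% of all genes. These 20 genes gave an exact two-sided permutation p of 0.0286, the smallest that 4 against 4 libraries allow. In bulk RNA, fewer cells that express a gene and less of its RNA per cell cannot be told apart.

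The counts depended on how the libraries were scaled. When short RNA genes were left out and each library was brought to the same total over the remaining genes, 11 of the 36 genes were lower (30.6%) and 4 were higher, compared with 10.4% lower and 28.9% higher among all genes. The median of the list was then -0.03 and that of all genes was 0.04, so the list stood below all genes by about as much as before. No called gene changed its direction under any of the 20 alternatives. Ctsd, Ctsl, Ctss, Hexa, Npc2, Atg12, Atg16l1, Map1lc3b, Gabarapl2 and Sqstm1, which are 10 of the 21 called genes, kept their calls in all 20.

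**Figure D1:**
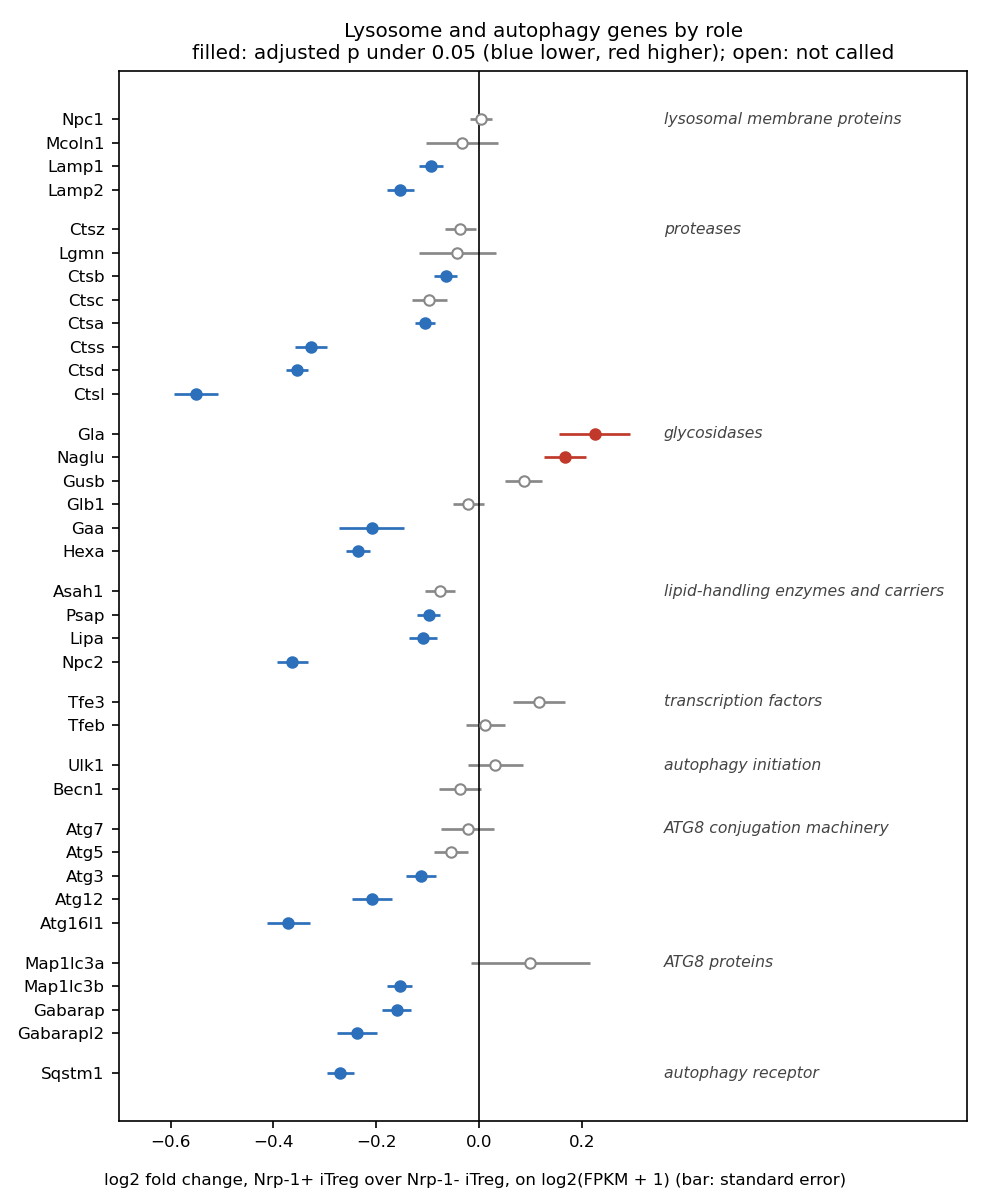
The log2 fold change of Nrp-1+ iTreg over Nrp-1- iTreg on log2(FPKM + 1) is plotted for the 36 tested genes, grouped by role, with bars for the standard error, filled points for an adjusted p under 0.05 (blue lower, red higher) and open points for genes not called. Most filled points lie left of 0, from Ctsl at -0.55 to Ctsb at -0.06, and the filled points right of 0 are the glycosidases Naglu at 0.17 and Gla at 0.23.

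Most lysosomal proteases were lower. Of the 8 lysosomal proteases, 5 were lower and 0 were higher, and their summed level, without rescaling, fell by 16.3%, from 724 ± 17.3 to 606 ± 3.53 FPKM (SD, n = 4 a group). Under the rescaling without short RNA genes, 3 of the 8, Ctsd, Ctsl and Ctss, were still lower. Cathepsin L (Ctsl), a cysteine protease, was at 6.28, 6.06, 6.75 and 6.93 FPKM in Nrp-1+ iTreg and at 9.92, 9.78, 9.97 and 10.3 FPKM in Nrp-1- iTreg. All 4 Nrp-1+ libraries were low and the groups were far apart, and Ctsl fell by 34.8% (log2 fold change -0.55 ± 0.042 SE, adjusted p = 2.34e-05), the largest relative decrease among the tested genes of the list.

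Cathepsin D (Ctsd), an aspartic protease that is abundant in lysosomes, was at 205, 204, 204 and 206 FPKM in Nrp-1+ iTreg and at 253, 267, 263 and 266 FPKM in Nrp-1- iTreg. The Nrp-1+ libraries were within 2 FPKM of each other, and every Nrp-1- library was higher, with a decrease of -0.35 ± 0.022 (log2, SE, adjusted p = 6.2e-06). Cathepsin S (Ctss), which cleaves the invariant chain of MHC class II in antigen-presenting cells, was at 185, 182, 179.7 and 175 FPKM against 218, 221, 236 and 232 FPKM. The groups did not overlap, and Ctss fell by 20.4% (log2 fold change -0.33 ± 0.031 SE, adjusted p = 8.85e-05). Cst3, an inhibitor of cysteine cathepsins, was read among the markers given earlier and was not called, at 125 ± 5.98 FPKM against 114 ± 7.18 FPKM (SD, adjusted p = 0.075).

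Smaller differences were measured for the serine carboxypeptidase cathepsin A and for cathepsin B. Ctsa was at 35.8, 35.9, 35.8 and 36.7 FPKM in Nrp-1+ iTreg and at 38.6, 38.7, 38.6 and 39.6 FPKM in Nrp-1- iTreg. The groups did not overlap, although Ctsa fell by 7.20% only (adjusted p = 0.00303). Ctsb was at 53.8, 54.8, 54.5 and 55.05 FPKM against 55.04, 57.6, 58.1 and 57.6 FPKM. Here the lowest Nrp-1- library was level with the highest Nrp-1+ library, and the call of Ctsb (adjusted p = 0.0485) was kept in 6 of 20 alternatives. Leaving out any library other than replicate 1 of Nrp-1- iTreg ended it, with adjusted p from 0.0582 to 0.11. Cathepsin C (Ctsc), which activates granule serine proteases, ran from 40.1 to 44.4 FPKM against 45.2 to 47.1 FPKM and was not called (adjusted p = 0.0516), although its groups did not overlap. Ctsz, a carboxypeptidase, and Lgmn, an asparaginyl endopeptidase that processes other cathepsins, overlapped between the groups, with log2 differences of -0.04 each.

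The glycosidases held calls in both directions. Of 6 genes, 2 were lower, 2 were higher and 2 were not called, with a median log2 difference of 0.03. Each direction held 33.3% of these few genes, compared with 20.0% lower and 20.9% higher over all genes. Under the rescaling without short RNA genes, 1 was lower and 3 were higher, with a median of 0.09, compared with 10.4% lower and 28.9% higher over all genes. Hexa, the alpha subunit of beta-hexosaminidase, was at 37.7, 37.3, 37.1 and 37.3 FPKM in Nrp-1+ iTreg and at 43.7, 45.8, 43.1 and 44.0 FPKM in Nrp-1- iTreg. The groups were well separated, and Hexa fell by 15.4% (log2 fold change -0.24 ± 0.023 SE, adjusted p = 9.12e-05). Acid alpha-glucosidase (Gaa), which degrades glycogen, ran from 5.58 to 7.01 FPKM against 6.96 to 7.94 FPKM, so that the groups overlapped, and its call (adjusted p = 0.0309) was kept in 11 of 20 alternatives. It was lost, at adjusted p from 0.0522 to 0.0791, when replicate 1, 2 or 3 of Nrp-1+ iTreg or replicate 1, 2 or 4 of Nrp-1- iTreg was left out.

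Naglu, which degrades heparan sulfate, was at 8.68, 9.26, 8.91 and 9.10 FPKM in Nrp-1+ iTreg and at 7.66, 8.02, 7.43 and 8.48 FPKM in Nrp-1- iTreg. Every Nrp-1+ library was above every Nrp-1- library, and Naglu rose by 13.8% (log2 fold change 0.17 ± 0.042 SE, adjusted p = 0.013). Alpha-galactosidase A (Gla), which degrades globotriaosylceramide and is encoded on the X chromosome, was the least abundant gene tested in the list, at 3.26, 2.74, 3.10 and 2.77 FPKM against 2.51, 2.07, 2.40 and 2.60 FPKM. The groups did not overlap, and Gla rose by 23.9% (log2 fold change 0.23 ± 0.070 SE, adjusted p = 0.032). Without replicate 1 or 3 of Nrp-1+ iTreg, or replicate 2 or 3 of Nrp-1- iTreg, Gla was not called (adjusted p from 0.0602 to 0.0776). Neither increase was called when each library was corrected for GC content and transcript length, with or without the replicate number as a block. Beta-galactosidase (Glb1) and beta-glucuronidase (Gusb) were not called, at log2 differences of -0.02 and 0.09, although Gusb was called higher under that rescaling.

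Among the genes that handle lipids, 3 of 4 were lower and 0 were higher. Npc2, the soluble carrier that hands cholesterol to Npc1 in the lysosome, was at 265, 266, 265 and 268 FPKM in Nrp-1+ iTreg and at 327, 336, 356 and 354 FPKM in Nrp-1- iTreg. The Nrp-1+ libraries were almost equal and all lay below the Nrp-1- libraries, and Npc2 fell by 22.4% (log2 fold change -0.36 ± 0.030 SE, adjusted p = 3.81e-05). Its partner Npc1, a membrane protein, was at 29.4 ± 0.344 FPKM against 29.3 ± 0.553 FPKM (SD, n = 4), a log2 difference of 0.00 ± 0.021 (SE) that was not called. Whether the change of Npc2 differed from that of Npc1 was not tested.

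Prosaposin (Psap), the precursor of the saposins that activate sphingolipid hydrolases, was at 293, 293, 303 and 306 FPKM against 320.3, 315, 326 and 319 FPKM. The groups did not overlap, and Psap fell by 6.57% (adjusted p = 0.00991). Lysosomal acid lipase (Lipa), which hydrolyses cholesteryl esters and triglycerides, was at 41.4, 42.9, 42.4 and 40.8 FPKM against 46.1, 43.4, 45.7 and 45.9 FPKM. Apart from replicate 2 of Nrp-1- iTreg, which lay just above the Nrp-1+ libraries, the groups were separated by several FPKM, and Lipa fell by 7.47% (adjusted p = 0.013). Acid ceramidase (Asah1) ran from 19.9 to 21.9 FPKM against 21.7 to 22.3 FPKM and was not called. Of this role, Npc2 alone was lower under the rescaling without short RNA genes.

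**Figure D2:**
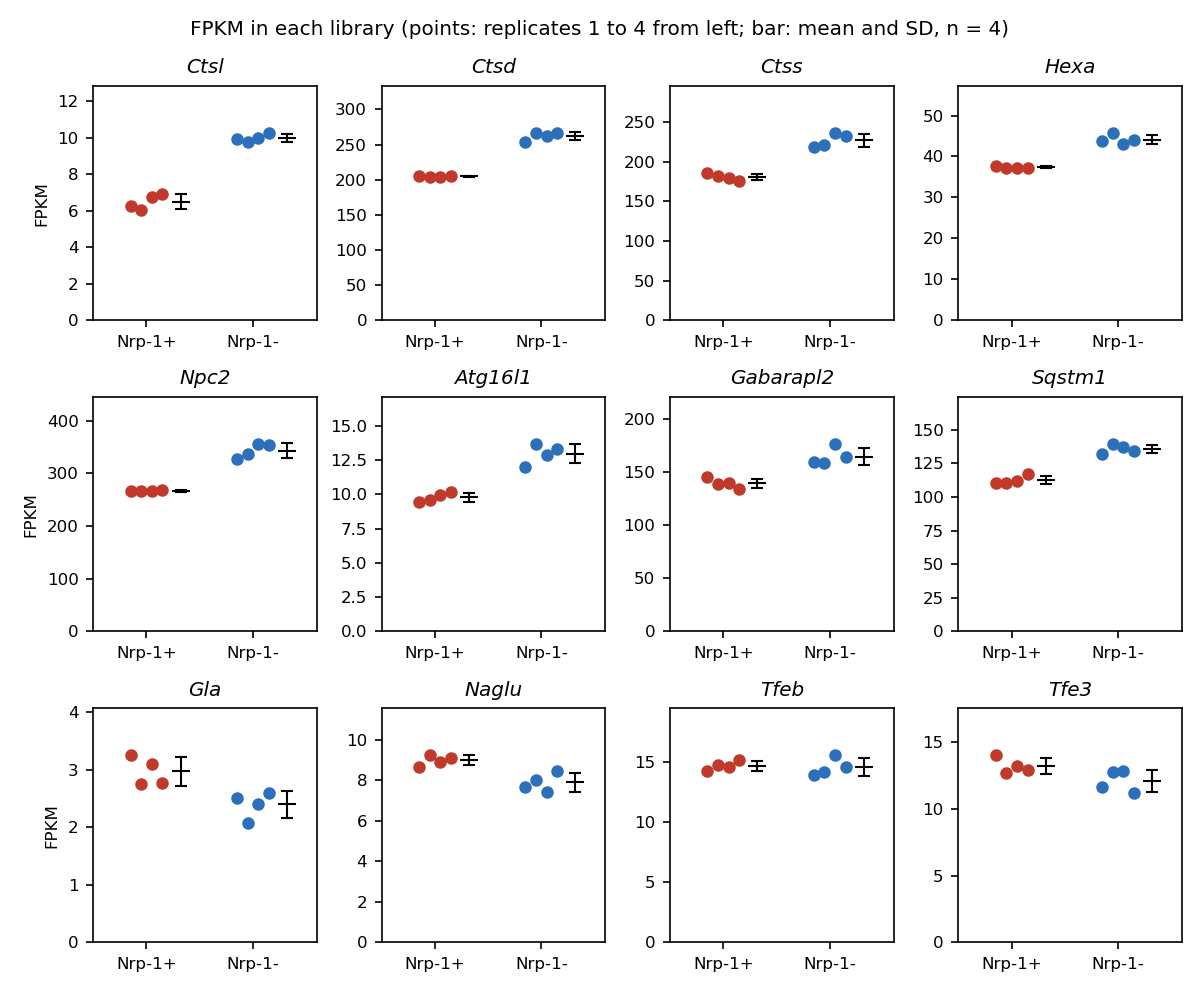
The FPKM of 12 genes is plotted in each of the 8 libraries, with red points for Nrp-1+ iTreg, blue points for Nrp-1- iTreg and bars for the mean and SD (n = 4), on axes that start at 0. The groups are apart for Ctsl (6.06 to 6.93 against 9.78 to 10.3 FPKM) and Npc2 (265 to 268 against 327 to 356 FPKM), whereas those of Tfeb and Tfe3 overlap.

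Among lysosomal membrane proteins, Lamp1 and Lamp2, the major glycoproteins of the lysosomal membrane, were lower and Npc1 and Mcoln1 were not called. Lamp1 was at 112, 113, 109.8 and 113 FPKM in Nrp-1+ iTreg and at 117, 124, 118 and 119 FPKM in Nrp-1- iTreg. The highest Nrp-1+ library lay below the lowest Nrp-1- library, and Lamp1 fell by 6.30% (log2 fold change -0.09 ± 0.023 SE, adjusted p = 0.0125). Lamp2 ran from 31.5 to 33.6 FPKM against 35.5 to 36.9 FPKM and fell by 10.3% (adjusted p = 0.00222). Neither Lamp gene was called under the rescaling without short RNA genes. Mcoln1, the calcium channel TRPML1, ran from 11.2 to 11.9 FPKM against 11.1 to 14.1 FPKM.

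Tfeb and Tfe3 did not pass the test. Tfeb was at 14.2, 14.8, 14.6 and 15.2 FPKM in Nrp-1+ iTreg and at 13.9, 14.2, 15.6 and 14.6 FPKM in Nrp-1- iTreg. Its groups overlapped throughout, with a log2 difference of 0.01 ± 0.038 (SE, adjusted p = 0.821). Tfe3 was at 14.0, 12.7, 13.2 and 12.9 FPKM against 11.6, 12.7, 12.8 and 11.2 FPKM. The groups overlapped here as well, with a log2 difference of 0.12 ± 0.050 (SE, adjusted p = 0.0967), and Tfe3 was called higher in 1 of 20 alternatives, the rescaling without short RNA genes. Transcript levels do not report where these factors were in the cell.

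The initiation genes Becn1 and Ulk1 were not called. Becn1, a subunit of the phosphatidylinositol 3-kinase complex of autophagy, ran from 64.9 to 71.1 FPKM against 66.3 to 73.4 FPKM. Ulk1, the kinase that starts autophagy and that mTORC1 inhibits, ran from 11.8 to 13.6 FPKM against 11.2 to 12.8 FPKM. Neither gene was called under any of the 20 alternatives.

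In the machinery that attaches ATG8 proteins to membrane lipid, 3 of 5 genes were lower and 0 were higher. Atg16l1, which together with the ATG12-ATG5 conjugate sets the site of lipidation, was at 9.43, 9.61, 9.98 and 10.1 FPKM in Nrp-1+ iTreg and at 12.0, 13.7, 12.9 and 13.3 FPKM in Nrp-1- iTreg. Its groups did not overlap, and Atg16l1 fell by 24.5% (log2 fold change -0.37 ± 0.042 SE, adjusted p = 0.000249). Atg12, the ubiquitin-like protein joined to ATG5, ran from 29.3 to 32.3 FPKM against 34.3 to 37.8 FPKM and fell by 13.7% (adjusted p = 0.00349). Atg3, the E2-like enzyme of ATG8 proteins, was at 37.5, 37.4, 37.3 and 36.9 FPKM against 41.7, 41.5, 38.2 and 40.2 FPKM. The groups did not overlap, with replicate 3 of Nrp-1- iTreg close to the Nrp-1+ libraries, and Atg3 fell by 7.75% (adjusted p = 0.0166). Under the rescaling without short RNA genes Atg3 was not called (adjusted p = 0.368), which left 2 of the 5 genes lower. Atg5 and the E1-like enzyme Atg7 were not called, at log2 differences of -0.05 and -0.02.

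Of the 4 genes of ATG8 proteins themselves, the 3 abundant ones were lower. Map1lc3b, which encodes LC3B, was at 111, 106, 110.3 and 111 FPKM in Nrp-1+ iTreg and at 119.5, 122, 122 and 125 FPKM in Nrp-1- iTreg. Gabarap was at 213, 205, 209.9 and 210.1 FPKM against 225, 244, 237 and 230.3 FPKM. Gabarapl2 was at 145, 139, 139.7 and 135 FPKM against 159.8, 159, 177 and 164 FPKM. In all 3 genes every Nrp-1+ library was below every Nrp-1- library, and they fell by 10.2%, 10.6% and 15.3%, with adjusted p of 0.00139, 0.00245 and 0.00182. All 3 kept their calls under the rescaling without short RNA genes, while Gabarap was not called after quantile normalization. Map1lc3a, the LC3A gene, was at 9.02, 6.16, 8.55 and 8.47 FPKM against 7.30, 6.40, 7.49 and 8.42 FPKM. Its groups overlapped, the SD was up to 1.28 FPKM, and it was not called (log2 difference 0.10 ± 0.12 SE, adjusted p = 0.518).

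Sqstm1, which encodes the autophagy receptor p62, was at 110.3, 110.2, 112 and 117 FPKM in Nrp-1+ iTreg and at 132, 139, 137 and 134 FPKM in Nrp-1- iTreg. The groups were clearly apart, and Sqstm1 fell by 17.2% (log2 fold change -0.27 ± 0.027 SE, adjusted p = 0.000113). p62 is both a cargo that autophagy degrades and a receptor that carries ubiquitinated cargo, and the transcript level measured here does not report its turnover.

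The abundant genes of the list were all lower. They were the 9 genes with a mean of at least 100 FPKM, Psap, Npc2, Ctsd, Gabarap, Ctss, Gabarapl2, Sqstm1, Lamp1 and Map1lc3b. Of the 27 tested genes under 100 FPKM, 10 were lower (37.0%) and 2 were higher (7.41%), compared with 20.0% and 20.9% of all genes tested at any level. Of all genes with a mean of at least 100 FPKM, 32.7% were lower, and the limit of 100 FPKM was chosen after the values were seen. Under the rescaling without short RNA genes, 7 of the 9 were lower, compared with 23.1% of all genes at this level. Summed over the 37 genes, the level was 2310.5 ± 11.7 FPKM in Nrp-1+ iTreg, compared with 2645 ± 47.4 FPKM in Nrp-1- iTreg (SD, n = 4), a sum that the abundant genes make up for the most part. This sum was not rescaled, and the total FPKM outside short RNA genes was also lower in Nrp-1+ iTreg, at a mean of 680221 against 710622.

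**Figure D3:**
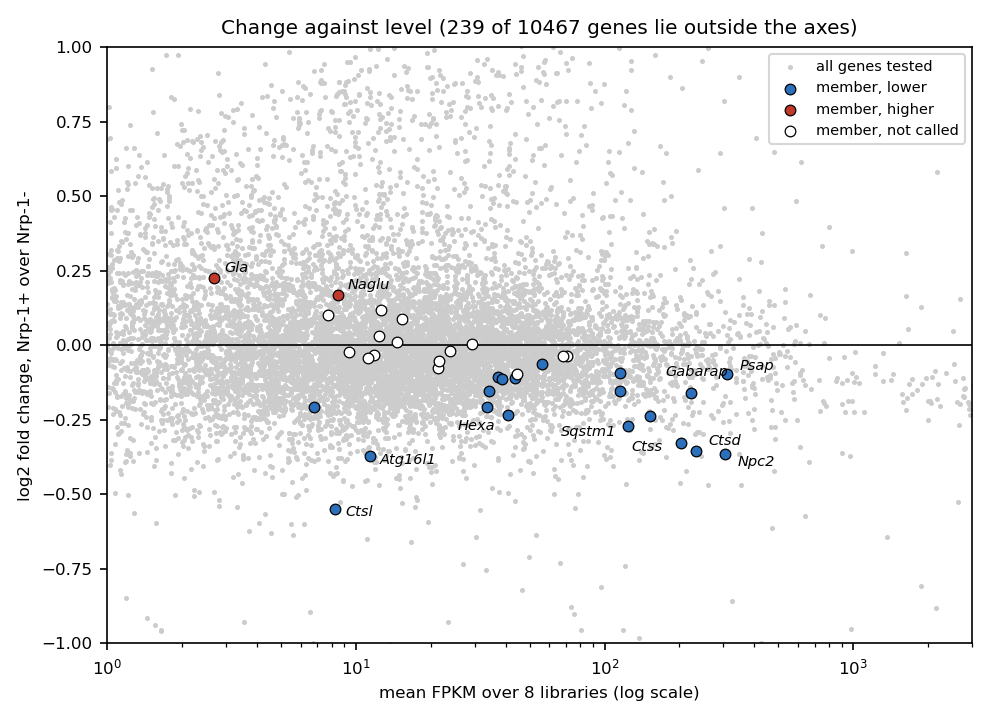
The log2 fold change of Nrp-1+ iTreg over Nrp-1- iTreg is plotted against the mean FPKM over 8 libraries, on a log axis, with grey points for all genes tested, 239 of which lie outside the axes, and larger points for lysosome and autophagy genes (blue lower, red higher, white not called). The 9 genes of the list at 100 FPKM or more are all blue and lie between -0.36 and -0.09, and Gla, at the lowest level, is red at 0.23.

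Wider lists of 190 other lysosome, autophagy and mTORC1 genes were read in the same way. Of these, 177 were tested, 61 were lower and 13 were higher in Nrp-1+ iTreg, which is 34.5% and 7.34% of the tested genes, and their median log2 difference was -0.07. These counts rested on the scaling. Under the rescaling without short RNA genes, 19 were lower (10.7%) and 17 were higher (9.60%), compared with 10.4% and 28.9% of all genes. The share lower was then close to that of all genes, the share higher was below it, and the median was -0.01, compared with 0.04 over all genes. Of the wider genes named in the following, 0 changed direction under any alternative, and 7 (Ctns, Gga3, Wdr45, Atg16l2, Plekhm1, Usf1 and Max) lost their call under the rescaling.

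Among other lysosomal hydrolases and their activators, 10 of 33 were lower (30.3%) and 5 were higher (15.2%), compared with 20.0% and 20.9% of all genes. Under the rescaling 5 were lower (15.2%) and 6 were higher, compared with 10.4% and 28.9% of all genes. Neuraminidase 1 (Neu1), which forms a complex with cathepsin A, was at 7.25, 7.53, 7.18 and 7.46 FPKM in Nrp-1+ iTreg and at 10.1, 11.2, 10.05 and 10.3 FPKM in Nrp-1- iTreg. The groups were far apart, and Neu1 fell by 29.5% (adjusted p = 5.02e-05). Dnase2a, the acid DNase of lysosomes, rose from 4.03 ± 0.695 to 6.28 ± 0.576 FPKM (SD, adjusted p = 0.00374), and the sulfatase Galns rose from 8.39 ± 0.224 to 9.51 ± 0.442 FPKM (SD, adjusted p = 0.00884). The call of Galns was lost after the GC content and length correction, with adjusted p of up to 0.172.

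Other lysosomal membrane proteins had 9 lower (40.9%, compared with 20.0% of all genes) and 0 higher of 22. Cln3, the protein affected in juvenile Batten disease, fell by 17.8% (adjusted p = 0.000704), and the cystine transporter Ctns fell by 15.3% (adjusted p = 0.0361). V-ATPase subunits, which acidify the lysosome, had 7 lower (41.2%) and 0 higher of 17. The stalk subunit Atp6v1d was at 113.5 ± 2.38 FPKM against 139 ± 5.88 FPKM (SD, adjusted p = 0.000248), and Atp6v0b of the membrane sector fell by 15.2% (adjusted p = 0.0186). Mannose 6-phosphate sorting, by which new hydrolases reach the lysosome, had 1 lower and 3 higher of 10. These shares were 10% and 30%, compared with 20.0% and 20.9% of all genes. The adaptor Gga3 fell by 13.0% (adjusted p = 0.0028), while Gnptg, a subunit of the enzyme that builds the mannose 6-phosphate tag, and Ap1m1, of the clathrin adaptor AP-1, rose by 12.4% and 9.05% (adjusted p = 0.0278 and 0.00821). Gnptg and Ctns lost their calls when single libraries were left out, with adjusted p of at most 0.109 and 0.104 over all alternatives, Atp6v0b lost its call without replicate 2 of Nrp-1- iTreg, and Ap1m1 lost its call with the GC content and length correction and the replicate block (adjusted p = 0.0833). Under the rescaling without short RNA genes, the lower counts of these 3 lists were 1, 3 and 0 (4.55%, 17.6% and 0%), compared with 10.4% of all genes. The sorting list then had 3 of 10 higher, near the 28.9% of all genes.

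For autophagy, 10 of 19 other initiation and phosphoinositide kinase genes were lower and 0 were higher, all by modest amounts, such as Atg2b, a lipid transfer protein, by 15.9% and Wdr45, a phosphoinositide-binding protein, by 11.7% (adjusted p = 0.0145 and 0.00518). The share lower, 52.6%, was above the 20.0% of all genes, but under the rescaling 1 of the 19 was lower (5.26%), below the 10.4% of all genes. Among 7 other conjugation and processing genes, 3 were lower (42.9%) and 1 under the rescaling (14.3%). Atg16l2, a relative of Atg16l1, fell by 10.8% (adjusted p = 0.0101). Tecpr1, a protein that binds ATG12-ATG5, was at 55.3 ± 1.48 FPKM against 66.8 ± 1.58 FPKM (SD, adjusted p = 0.000108). The other autophagy receptors held both directions, with 5 of 11 lower (45.5%) and 1 higher (9.09%). The mitophagy receptor Bnip3 was at 61.0, 59.9, 56.2 and 54.4 FPKM in Nrp-1+ iTreg and at 73.4, 76.2, 76.8 and 76.8 FPKM in Nrp-1- iTreg, and Calcoco1 fell by 19.8%. Optn, the receptor optineurin, was at 2.71, 2.39, 2.74 and 2.93 FPKM against 1.68, 1.39, 1.82 and 1.42 FPKM. Bnip3 was thus low and Optn high in every Nrp-1+ library (adjusted p = 0.000109 and 0.000962), and 4 receptors stayed lower (36.4%) and 1 higher under the rescaling. Genes of autophagosome and lysosome fusion had 4 lower and 0 higher of 15, and 1 in each direction under the rescaling. The share lower, 26.7%, was near the 20.0% of all genes, and under the rescaling it was 6.67% against 10.4%. The tethering subunit Vps11 fell by 17.1% (adjusted p = 0.00566), and the adaptor Plekhm1 was lower at a log2 fold change of -0.15 (adjusted p = 0.00799).

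mTORC1 is the kinase complex that senses nutrients on the lysosome, and the list of its subunits and lysosomal regulators had 8 lower and 4 higher of 34. The share lower, 23.5%, was near the 20.0% of all genes, and under the rescaling 3 were lower and 6 were higher. Folliculin (Flcn), which activates RagC and RagD and so directs mTORC1 to TFEB and TFE3, was at 17.6, 17.0, 18.0 and 18.8 FPKM in Nrp-1+ iTreg and at 24.6, 23.9, 23.2 and 25.4 FPKM in Nrp-1- iTreg. The groups did not overlap, and Flcn fell by 26.5% (adjusted p = 6.44e-05). Sesn2, a leucine sensor that restrains mTORC1, was at 15.1, 15.5, 15.2 and 16.4 FPKM against 11.7, 10.5, 11.2 and 11.5 FPKM. It was higher in every Nrp-1+ library, by 38.5% on average (adjusted p = 7.87e-05). Lamtor4, of the complex that anchors mTORC1 to the lysosome, fell by 18.5% (adjusted p = 0.00502), and Tbc1d7, a subunit of the TSC complex, rose by 29.8% with groups that overlapped (adjusted p = 0.0209). The call of Tbc1d7 was lost without replicate 2 or 4 of Nrp-1+ iTreg or replicate 1, 2 or 3 of Nrp-1- iTreg, at adjusted p of up to 0.057. Of 9 other transcription factors linked to these genes, 4 were lower and 0 were higher, among them Usf1 and Max, which also bind E-boxes and for which the log2 fold change was -0.15 and -0.12 (adjusted p = 0.00276 and 0.00446). The share lower was 44.4%, compared with 20.0% of all genes. None of the 9 was called lower under the rescaling, compared with 10.4% of all genes.

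**Figure D4:**
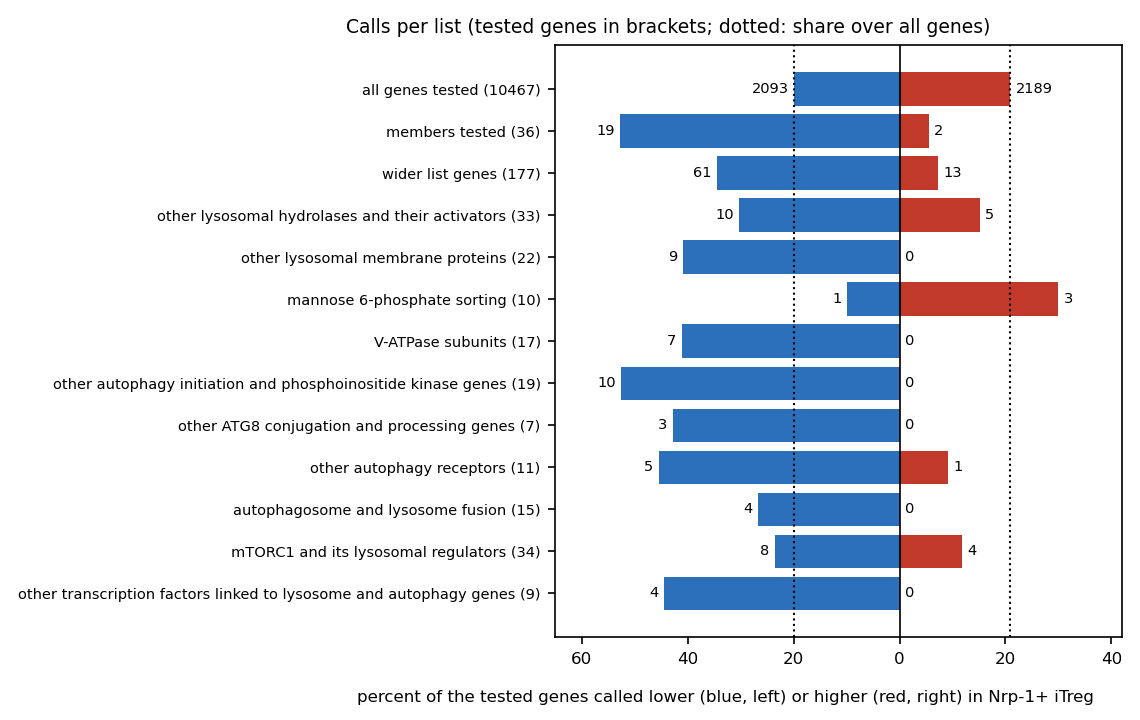
Bars show the percent of the tested genes of each list that were called lower (blue, left) or higher (red, right) in Nrp-1+ iTreg, with the number called beside each bar, the number tested in brackets and dotted lines for the shares over all genes tested (20.0% lower, 20.9% higher). Lower calls made up 52.8% of the 36 tested genes of the main list and 34.5% of the 177 of the wider lists. Mannose 6-phosphate sorting had 3 higher calls and 1 lower call. Under the rescaling without short RNA genes, not plotted, higher calls also outnumbered lower calls among other hydrolases (6 and 5) and mTORC1 regulators (6 and 3).

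Several genes of the list share exon sequence with a neighbour in GENCODE M21, and whether the authors' counting used strand is not given in the sources used here. Ctsb overlapped Fdft1 on the opposite strand over 12.8% of its exon bases, with Fdft1 at 32.6 FPKM, so the level of Ctsb is uncertain to that extent. Becn1 overlapped Cntd1 over 43.9% of its exon bases, with Cntd1 at 1.20 FPKM. Ctsd overlapped Gm49369 on the same strand, Ctsl overlapped an antisense gene and Sqstm1 overlapped Mrnip on the opposite strand, over 34.4%, 26.8% and 17.3% of their exon bases. No value was found under the GENCODE symbols of these 3 neighbours, and older symbols were not searched for them. Their part in the differences was not tested.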

How the data were processed

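RNA-seq libraries of 4 Nrp-1+ iTreg and 4 Nrp-1- iTreg samples were grouped by the labels' cell subset. According to the study's methods, the authors used the CLC Genomics Workbench for the reads and Cufflinks for the levels. The deposited values are FPKM, given once per library for every gene symbol. The submitters' processing notes name the builds GRCm38 and mm10, and the annotation is not given in the sources used here. The methods name a directional polyA kit, whereas the labels name another kit. FPKM is relative to all mapped fragments and to length. Outside short RNA genes it summed to 672266 to 691623 in Nrp-1+ iTreg and 682563 to 728800 in Nrp-1- iTreg libraries. FPKM holds no counts, so no count model was used and no counting interval is given.

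Genes with a mean of at least 1 FPKM were compared by limma 3.58.1 under R 4.3.3, which fitted log2(FPKM + 1) and moderated the variances along an intensity trend, at a Benjamini-Hochberg adjusted p under 0.05 over 10467 genes. Exact two-sided permutation tests compared mean FPKM for single genes. Python 3.11.15 with pandas 2.3.3, scipy 1.17.1 and matplotlib 3.10.9 was used for the rest. The fit was tested on simulated data for this comparison, with 200 of the 10467 genes changed, and recovered 100% of those changed by 1 and 84% of those lowered by 0.3 on the log2 scale, with 6 false calls. The changed genes had a low spread and a level well above the filter, and the noise was independent between libraries. Recovery at lower levels, of smaller changes, or under an error in library scaling was therefore not measured.

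The genes and lists were chosen with earlier results of these data known. Values in every library are given for the 8 called genes with the largest and the 8 with the smallest log2 fold change, for Tfeb, Tfe3, the ATG8 genes, Lamp1 and Sqstm1, and from each wider list up to 2 genes in each direction are named, of which 1 is not reported here. Older symbols and promoters came from RefSeq (GRCm38.p6), and exon overlap, length and GC content from GENCODE M21. Tried as alternatives were other pseudocounts (0.1 and 0.5), no filter, a filter at 5 FPKM, median-of-ratios size factors, quantile normalization, 783 short RNA genes left out with rescaling, array weights, no intensity trend, a replicate block and each library left out. A GC content and length correction (splines with 5 degrees of freedom, with and without the block) was added after the data were seen. The nTreg libraries were not analysed here.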

Additional observations from a re-analysis of the deposited data

Results flagged for a closer look

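In 5 of the 74 groups of 4 values examined (37 genes in 2 groups), 1 library lay far from the other 3 by Dixon's criterion, and about 3.7 such groups would be found by chance. Mcoln1 measured 14.14 FPKM in the Nrp-1- replicate 2 library, with the others of its group at 11.1 to 11.4 FPKM. Ctsa measured 39.59 FPKM in the Nrp-1- replicate 4 library, with the others at 38.6 to 38.7 FPKM. Ctsb measured 55.04 FPKM in the Nrp-1- replicate 1 library, with the others at 57.6 to 58.1 FPKM, and this is the library at which its groups meet. Glb1 measured 22.98 FPKM in the Nrp-1+ replicate 3 library, with the others at 23.8 to 24.0 FPKM. Lipa measured 43.37 FPKM in the Nrp-1- replicate 2 library, with the others at 45.7 to 46.1 FPKM. The 5 values came from 4 libraries of both groups.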

How the results depend on the processing

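Of the 21 called genes of the list, 10 kept their call under all 20 alternatives, and 0 changed direction. The count of 19 lower genes became 11 when short RNA genes were left out and the libraries rescaled, which shifted the median of all genes by 0.06 on the log2 scale. Lamp1, Lamp2, Ctsa, Ctsb, Gaa, Psap, Lipa and Atg3 lost their calls there. The higher genes numbered 4 under that rescaling, 1 with a filter at 5 FPKM (Gla is under it), 1 after quantile normalization, 0 after the GC content and length correction and 0 with that correction and the replicate block. The lower genes of the wider lists went from 61 to 19 and those of all genes from 2093 to 1065 under the rescaling, and 8 wider genes instead of 13 were higher with the correction and the block. Higher calls made up 51.1% of all calls over all genes, 73.5% under the rescaling (2949 higher) and 40.0% after the GC content and length correction (1840 higher and 2756 lower). Of the list's calls, 9.52% were higher, and 26.7% under the rescaling. Of the wider lists' calls, 17.6% and 47.2% were higher. Leaving out each library in turn gave 17 to 19 lower and 1 to 3 higher genes of the list. Without replicate 1 or 3 of Nrp-1+ iTreg or replicate 2 of Nrp-1- iTreg, Gla was not called and 1 gene was higher. Without replicate 2 of Nrp-1+ iTreg, Gusb was called and 3 genes were higher. With the replicate block, 16 genes of the list were lower and 2 higher, and Ctsb, Gaa and Lipa lost their calls. The replicate numbers give no sign of pairing, since same-numbered libraries correlated at -0.54 to 0.01 in their deviations and 0 of 4 pairs correlated best. Without short RNA genes these correlations were -0.11 to -0.04, again with 0 of 4 best. FPKM without counts leaves the counting error of single genes unknown.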
